A study of Drosophila melanogaster with 4 samples.

Results

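Of the 21928 unflagged spots on a fruit fly microarray, 122 (0.556%) gave a far stronger signal with RNA of adult females than with RNA of adult males while keeping a clear signal in the males. The gene field of the scanner files is blank and control spots are not marked, so spots are named here by row and column. The signal of a spot is its mean pixel intensity minus the mean intensity of its local background, divided by the median of that difference over the unflagged spots of the same sample, and is called the scaled net signal. A value of 1 is thus the median spot of that sample. The 122 spots were chosen by these measured values: a scaled net signal above 125% of the median spot's in both male samples, called the male floor, and at least 8 times higher in the female than in the male sample on each of 2 slides. The male level and the ratio between the sexes therefore describe the choice and were not tested. They made up 22.5% of the 542 spots with a ratio of at least 8 on each slide (2.47% of all unflagged spots) and 1.496% of the 8156 spots above the floor in both male samples (37.2% of all unflagged spots). In net intensity the floor was 61.9 units without wash and 111 with wash. Each slide taken alone admitted more spots, 226 without wash and 166 with wash, because both conditions then had to hold only once.

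The samples were 4 pools of adult Drosophila melanogaster from which total RNA was taken, 2 of intact females and 2 of intact males of the same genotype. Without wash, Cy5 marked the female and Cy3 the male RNA, and with wash it was the reverse. The series' title names the choice of a wash solution as its subject, and the sources used here do not say what the wash was, which genotype and age the flies had or how many flies made a pool. Each sex thus had 2 samples that differed in slide, wash and dye at once, and these cannot be told apart. The pools are whole adults per the labels, so fewer cells of a type and less RNA per cell cannot be told apart either.

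In adult Drosophila, much of the difference in RNA content between the sexes comes from the gonads. The ovary loads each egg with a large store of maternal transcripts, many of them for the cell cycle, DNA replication and early patterning, and its follicle cells make the eggshell, while the fat body of females makes yolk proteins. Some of these transcripts belong to genes that dividing cells of either sex use, and others to genes used in the female alone. With no gene names, none of the 122 spots could be assigned to such a group, and the gene lists prepared for this purpose were not used.

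In females the 122 spots were bright, as the choice requires: the male floor and a ratio of at least 8 together force every female value above 10, which 10.2% of unflagged spots exceeded in the female sample without wash and 7.23% in the one with wash. Their scaled net signal in the female sample without wash ran from 18.2 to 816 with a median of 70.2, and in the female sample with wash from 11.9 to 546 with a median of 41.8. Of the 122, 39 lay in the upper 1% of spots in both female samples. Together they carried 10.5% of the net signal of all unflagged spots in the female sample without wash and 9.56% in the one with wash. The female signal was high on both slides, and no median pixel of any of the 122 reached 65000, where the scale ends (the highest was 52784).

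In males the same spots had a moderate signal. The scaled net signal ran from 1.26 to 14.5 with a median of 2.17 in the male sample without wash, and from 1.31 to 24.7 with a median of 2.65 in the one with wash. The 122 spots carried 0.330% of the net signal of the male sample without wash and 0.469% of that with wash. The male floor itself places these spots well above their local background, so the label of the set, a transcript still present in males, restates the choice and has no check of its own. Signal over local background had a median of 5.48 times (lowest 3.17) without wash and 6.73 times (lowest 3.73) with wash. Local background at the 122 spots had a median of 23.1 intensity units in the male sample without wash and 39.9 with wash, the same to 3 digits as over all unflagged spots. Ranked among all unflagged spots, their median percentile was 68.4 in the male sample without wash (lowest 56.1) and 73.0 in the one with wash (lowest 56.9). The male floor sets the lower end of these ranks. In the upper 25% of spots of both male samples were 33 of 122, and in the upper 10% were 5. Of all unflagged spots at most 25% and 10% can be there. Above 2 in both male samples were 60 spots, above 4 were 22 and above 8 were 7. These counts were not set against all spots.

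**Figure D1:**
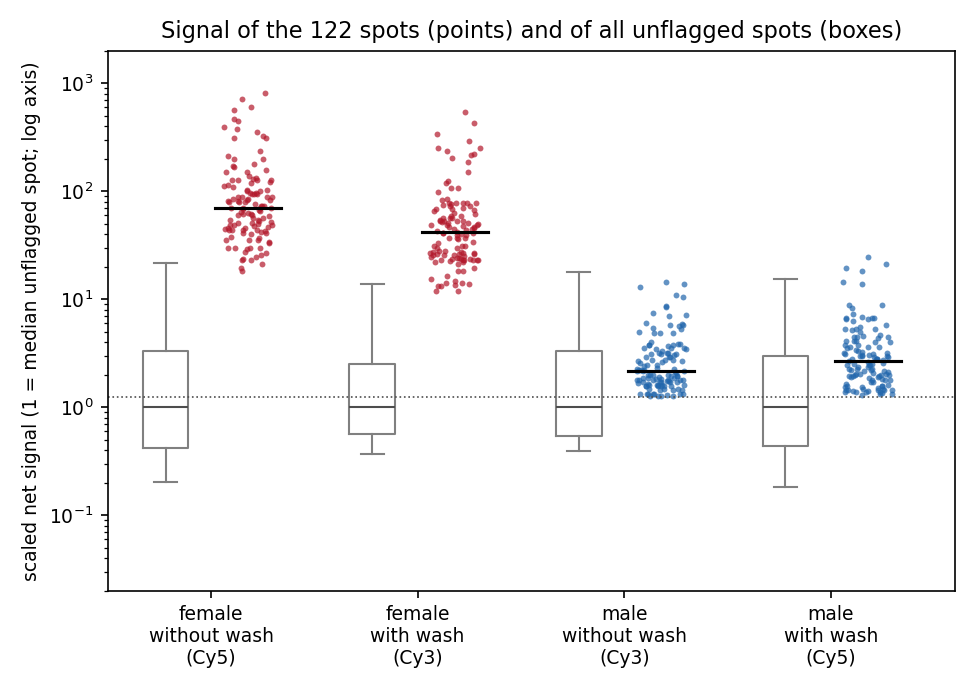
Scaled net signal (log axis, 1 is the median unflagged spot) of the 122 spots (points, with a black bar at their median) in each of the 4 samples, beside a box for all unflagged spots with a signal above background (box, quartiles; whiskers, 5th to 95th percentile). The medians of the 122 spots are 70.2 and 41.8 in the female samples and 2.17 and 2.65 in the male samples, and the dotted line marks the male floor, which all 122 exceed in both male samples by choice.

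The largest mean ratio belonged to the spot at row 19, column 176. Its scaled net signal was 448 in the female sample without wash and 250 in the one with wash, against 3.45 and 3.99 in the male samples. This was 130-fold higher in females on the slide without wash and 62.8-fold on the slide with wash. Its male samples lay close together, while its female samples differed by more than 1.5 times. The spot at row 27, column 7 had 212 and 108 in the female samples and 1.48 and 2.89 in the male samples, which gave 143-fold without wash and 37.4-fold with wash. At row 1, column 172 the values were 326 and 215 in females and 3.19 and 4.50 in males, or 102-fold and 47.8-fold. Of these 3 spots the slides differed most at row 27, column 7, where the male value was higher with wash. The next in order, at row 48, column 114, row 72, column 172 and row 79, column 61, had mean ratios of 67.8, 65.5 and 62.0. The difference between slides was larger than the steps between neighbours in this order, but it had the same direction at all 6 spots. It is thus no measure of how well spots on the same slides can be ranked, and the order was not tested. On each slide row 1, column 172 stood above row 48, column 114, and that above row 72, column 172. Row 27, column 7 was the highest of the 6 without wash and the lowest with wash.

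The spots with the highest male level were also among the brightest in females. A ratio of at least 8 on each slide itself requires a high female level of these spots, so this was not tested. Row 98, column 42 had 14.0 in the male sample without wash and 24.7 in the one with wash, against 601 and 337 in the female samples. Row 22, column 139 had 14.5 and 21.4 in males against 392 and 234 in females, and the spot at row 91, column 50 had 12.8 and 19.3 against 710 and 424. All 3 had a higher male and a lower female value on the slide with wash. The brightest of all in females, at row 105, column 46, had 816 and 546 in females and 8.53 and 18.3 in males. Its net signal before scaling was 41243 intensity units in the female sample without wash and 32827 in the one with wash, against 422 and 1627 in the male samples. Row 87, column 103 had 10.9 and 14.3 in males and 311 and 202 in females, and the spot at row 31, column 42 had 10.6 and 13.9 against 471 and 249. Of the 6 highest male levels, 4 were thus also among the 6 highest female levels, the other 2 of which were at row 72, column 172 and row 19, column 176. The groups did not overlap at any of the 122 spots, which the choice of a ratio of at least 8 nearly fixes. Among all unflagged spots 19.0% had both female values above both male values.

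**Figure D2:**
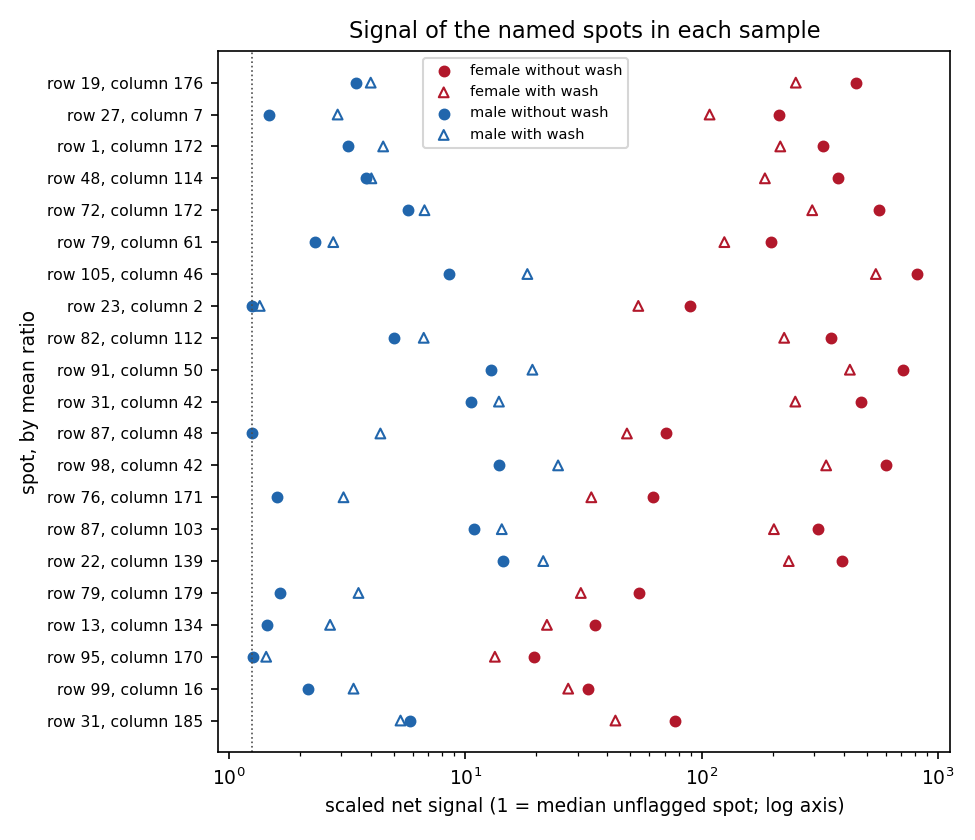
Scaled net signal (log axis) in each of the 4 samples at 21 of the 122 spots, named for the largest ratios, the highest male or female levels, the largest differences between slides, the smallest distances to a threshold or the likeness to the largest ratio, in order of mean ratio. Female values (red) lie at 13.4 or above and male values (blue) at 24.7 or below, and all female values lie to the right of the male values of the same spot.

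The male level and the size of the ratio did not go together among the 122 spots. Across the spots, which share the same 4 hybridizations and are not independent replicates, the mean log2 male level and the mean log2 ratio correlated with r = 0.020 (Spearman's rho = -0.0088), the female and male levels with r = 0.76 (rho = 0.68), and the female level and the ratio with r = 0.66 (rho = 0.66). These values are shaped by the choice of spots, since both thresholds remove spots of low female level, and the ratio contains both levels. By the mean of both slides 36 spots were 8 to 16 times higher in females, 59 were 16 to 32 times, 22 were 32 to 64 times and 5 were over 64 times. The median of the mean ratio was 18.8-fold and its range 9.29-fold to 90.3-fold. The male signal was thus a small part of the female signal, with a median of 3.62% without wash (range 0.7001% to 10.5%) and 7.58% with wash (1.59% to 12.4%).

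Both thresholds cut through a continuous range of spots. Just inside the male floor were row 87, column 48, where the lower male value was 1.257, row 23, column 2 with 1.260 and row 95, column 170 with 1.272. Just outside were row 62, column 112 with 1.248, row 27, column 206 with 1.240 and row 64, column 61 with 1.231. The last of these was 181-fold higher in females without wash and 87.6-fold with wash, more than any of the 122 on either slide. Just inside the ratio were row 99, column 16 with a lower ratio of 8.09, row 31, column 185 with 8.11 and row 13, column 134 with 8.26, all on the slide with wash. Just outside were row 97, column 165 with 7.9998, row 18, column 110 with 7.96 and row 34, column 145 with 7.93. The spots on either side of each line were thus nearly alike in the value that separated them.

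The 122 spots were set beside the 420 spots that met the same ratio on each slide but had at least 1 male value at or below the floor. Their median ratios were alike on the slide with wash, 13.2-fold for both sets. On the slide without wash the median was 27.6-fold for the 122 and 18.3-fold for the 420. The 420 were dimmer in females too, with medians of 13.4 without and 8.38 with wash against 70.2 and 41.8, and had male medians of 0.717 and 0.609. A male floor and a ratio together require a bright female signal, so this difference follows from the choice of the sets and was not tested. The largest mean ratio was 90.3-fold among the 122 and 174-fold among the 420.

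**Figure D3:**
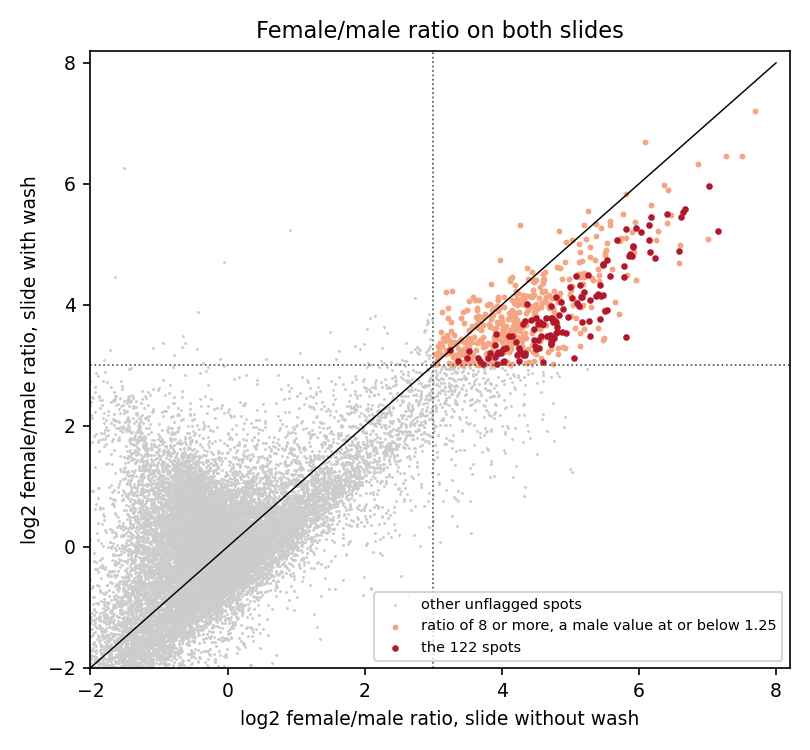
Log2 female/male ratio of scaled net signal on the slide without wash (horizontal) against the slide with wash (vertical) for the 122 spots (dark red), the 420 spots of the same ratio with at least 1 male value at or below the floor (orange) and other unflagged spots (grey, those within the axes), with a line of equal ratios and dotted lines at a ratio of 8. Of the 122 spots, 121 lie below the line of equal ratios, with medians of 27.6-fold without and 13.2-fold with wash.

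The ratio differed between the slides in the same direction at nearly every one of the 122 spots. With median scaling it was lower on the slide with wash at 121 of 122, against 49.3% of all unflagged spots, and the median difference in log2 ratio, with minus without wash, was -1.03 (SD over spots 0.36). After normexp background correction with loess and Aquantile normalization, which remove trends with intensity between the dyes and match intensities between the slides, it was lower at 90 of 122, against 45.9% of all unflagged spots, and the median difference was -0.15 (SD 0.27). The ratios themselves then had medians of 4.38 without and 4.12 with wash (log2), and all 122 stayed at least 8-fold on each slide, the lowest at 8.002-fold. With these values divided again by the median of each sample, 84 of the 122 met the full rule, which includes the male floor. Which condition the others failed was not counted. Changed one at a time, in settings added after seeing the data, normexp with median scaling gave a median of -0.78, with 121 of 122 lower, and plain subtraction with loess and Aquantile gave -0.37, with 112 of 122 lower. For the 420 spots with a lower male signal, the median difference was -0.43 with plain subtraction and median scaling, -0.21 with normexp and median scaling, 0.0042 with plain subtraction, loess and Aquantile and 0.13 with normexp, loess and Aquantile. Whether the 122 and the 420 differ in this respect was not tested.

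With median scaling, the female samples held the larger part of this difference. The female value was lower with wash at all 122 spots, against 58.7% of all unflagged spots, with a median log2 change of -0.82 (SD 0.17). The male value was higher with wash at 91 of 122, against 28.3% of all unflagged spots, with a median log2 change of 0.18 (SD 0.36). This split between the sexes rests on the scaling. Before scaling, the median net signal of the 122 spots went from 3546 without wash to 2516 with wash in females. In males it went from 108 to 235, a larger change in proportion. The order of the spots was kept more closely in females, where log2 values of the 2 samples correlated with r = 0.99 across the 122 spots, than in males, with r = 0.92. The ratios on the 2 slides correlated with r = 0.90 with median scaling and 0.93 after normexp, loess and Aquantile. The male samples span a narrower range of levels, and their log2 change between slides had the larger SD (0.36 against 0.17). The part of each in the lower r was not tested.

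Brightness moved with the slide difference. Among the 434 unflagged spots with a female level of at least 16 that differed by less than 2-fold between the sexes, all 434 had a lower female/male ratio with wash, with a median difference of -0.76 (log2). It was -0.69 with normexp in place of plain subtraction, -0.0098 with loess and Aquantile in place of median scaling, and 0.098 with both. By female level, the median difference with median scaling for spots under 2-fold between the sexes was -0.23 at levels of 1 to 2, -0.56 at 4 to 8, -0.73 at 16 to 32, -0.78 at 32 to 64, -0.94 at 64 to 128 and -1.01 above that. For the 122 spots it was -0.74 (23 spots), -0.95 (48 spots), -1.06 (33 spots) and -1.17 (17 spots) in the last 4 of these ranges, and the remaining spot had a lower female level. Bright spots in general thus had lower female/male ratios on the slide with wash before intensity trends were removed. After normexp, loess and Aquantile the 122 spots had medians of -0.056, -0.16, -0.20 and -0.17 in these ranges, and the spots under 2-fold between the sexes 0.056, 0.16, 0.18 and 0.40. The part of brightness, dye and wash in these differences was not tested.

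**Figure D4:**
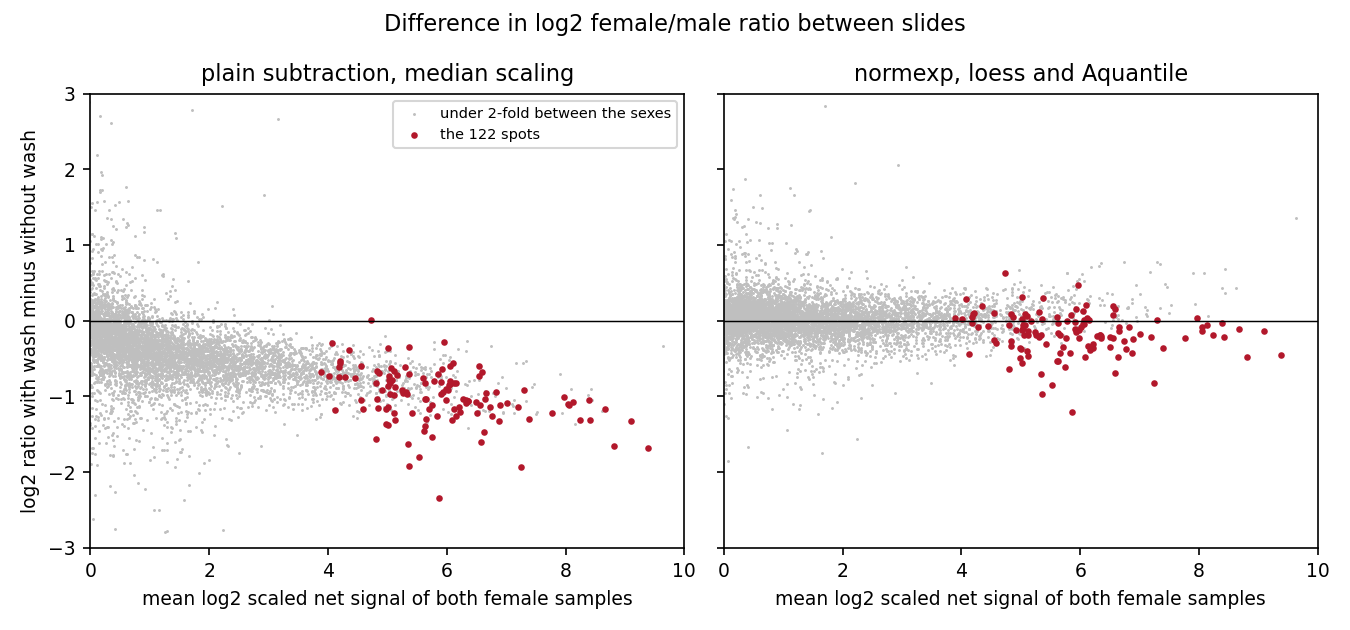
Difference in log2 female/male ratio, slide with wash minus slide without wash, against the mean log2 scaled net signal of both female samples, with plain subtraction and median scaling (left) and after normexp, loess and Aquantile (right), for the 122 spots (red) and for unflagged spots under 2-fold between the sexes on average (grey, those within the axes). On the left both sets fall further below 0 with brightness and the 122 spots have a median of -1.03, while on the right their median is -0.15.

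Where the ratio differed most between slides, the male values were far apart. At row 87, column 48 the spot had a male value of 1.26 without wash and 4.38 with wash, against 70.4 and 48.4 in females, and its ratio went from 56.0-fold to 11.03-fold. Row 79, column 179 had 1.65 and 3.54 in males against 54.5 and 30.9 in females, and the spot at row 76, column 171 had 1.60 and 3.06 against 62.4 and 34.2. Together with row 27, column 7, described above, these were the 4 spots whose ratios differed most between slides. At all 4 the male value was higher and the female value lower with wash, and with 1 sample per sex and slide this has no replicate check.

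Across all unflagged spots, limma was fitted to the log2 intensities of each channel with terms for sex and slide and Benjamini-Hochberg adjustment. For sex, 4016 of 21928 spots (18.3%) were higher in females at an adjusted p under 0.05, and all 122 were among them, which the choice of the spots by this contrast nearly fixes. In the authors' value table, with its plain subtraction and no scaling, the same fit called 1306 spots higher and 2126 lower in females and 49 of the 122. Over all spots 4016 were higher and 3306 lower in females, but 2933 and 3988 with median scaling, where all 122 were still called. For the slide term, 0 of the 122 spots and 0 of 21928 (0.0%) passed in limma. At an unadjusted p under 0.05, 12 of the 122 were higher with wash, against 13.9% of all spots, and 0 were lower, against 21.9%. The mean slide difference of the 122 had a median of 0.061 (log2, range -0.28 to 0.85) beside -0.070 over all spots, and with median scaling in place of loess the median of the 122 turned to -0.14. For Cy3 against Cy5, fitted with sex and dye, 0 of the 122 passed. This contrast is proportional to the change in log2 female/male ratio from slide to slide. Among all spots 460 were higher in Cy3 (2.1%) and 8 in Cy5 (0.0365%). At an unadjusted p under 0.05, 0 of the 122 were higher in Cy3 (2.59% of all spots) and 5 in Cy5 (0.328%), and the lowest adjusted p among the 122 was 0.0618. The test of each spot rests on 1 residual degree of freedom plus the spread pooled over all spots.

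The median pixel of each spot gave a similar picture. It summarizes the same scans as the mean pixel that chose the spots, so it is no separate check. The same rule on median pixels admitted 138 spots, of which 108 were among the 122. On the median pixel all 122 spots kept a ratio of at least 8 without wash and 109 did so with wash, and 121 stayed above the floor in both male samples. The median log2 ratio of the 122 was 4.99 without and 3.70 with wash. The median level in males was higher by this measure with wash, 3.89, than without wash, 2.27. Mean pixels were lower than median pixels at most of the 122 spots: the median quotient of mean over median pixel at the 122 spots was 0.783 and 0.784 in the female samples without and with wash, against 0.988 and 1.01 over all unflagged spots, and 0.897 and 0.950 in the male samples, against 0.955 and 1.07. The mean pixel thus gave lower female levels than the median pixel at these spots on both slides.

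The 122 spots were scattered over the array. They lay in 69 of 105 rows and 91 of 215 columns, and no row held more than 5. In 5 bands of 21 rows each there were 20, 27, 23, 26 and 26 of them, and in 5 bands of 43 columns 22, 21, 22, 28 and 29. Only 2 pairs touched, at rows 66 and 67 of column 169 and at columns 102 and 103 of row 87. The corner of raised background on the slide without wash (last 26 rows and last 61 columns) held 9 of the 122 spots (7.38%) and 5.80% of all unflagged spots. The median of the mean log2 ratio was 4.002 for these 9 and 4.25 for the other 113. Local background more than 125% of the channel's median was found at 4 of the 122 spots in each sample without wash (1.81% of all unflagged spots in the female and 2.21% in the male sample) and at 0 in each sample with wash (0.0730% and 0.274%).

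Likeness to the spot with the largest ratio, row 19, column 176, was measured as the distance between log2 scaled net signals over the 4 samples. The 3 nearest of 21925 spots with a signal above background in every sample were row 48, column 114 at 0.516, row 1, column 172 at 0.551 and row 82, column 112 at 0.993, all of them among the 122. The last of these had 353 and 224 in females and 5.001 and 6.68 in males. The distance uses the same values that chose the 122 spots. Any unflagged spot this near to row 19, column 176 therefore meets both thresholds, and the membership of the nearest spots is no separate result. The closest pair within the 122, row 2, column 186 and row 96, column 61, lay 0.125 apart, with 60.4 and 64.1 in the female sample without wash, 40.7 and 39.8 in the one with wash, 1.69 and 1.78 in the male sample without wash and 2.34 and 2.27 in the one with wash. These 2 spots are far apart on the array and had nearly the same value in each sample.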

How the data were processed

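The authors' deposited scanner files give pixel intensity (mean, median and mode) of each of 22575 spots and of its local background, 1 channel per file and without background subtraction, per the file headers. Values in the table the authors deposited are the natural log of net mean signal; set against the scanner files, no value differed by more than a relative 8.96e-08. The sources used here do not give the array maker, scanner or image software. Flags agreed at every spot within a wash state and differed between them, so a wash state was treated as 1 slide, which pairs the samples. The 647 spots flagged on either slide were left out. Arrays number 2 per sex, which limits the precision.

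The 122 spots, the gene lists and the tests were chosen with earlier results of these data known. Across all unflagged spots, mean intensities were corrected with normexp (offset 50), normalized by loess within slides and Aquantile between them, and fitted per channel with limma 3.58.1 in R 4.3.3 (lmFit, eBayes with trend), with sex and slide, or sex and dye, as terms. P-values were two-sided and Benjamini-Hochberg adjusted over 21928 spots, with a threshold of 0.05. Each sets the difference for its term against the spread left over in that fit, moderated by the spread pooled over spots. For sex, with 2 samples per sex, the spread left over is how far the slides disagree on the difference. That spread may be technical. The fit for sex was tested on simulated data with independent noise and no slide or dye effect. The slide and dye terms were not tested in this way. Named spots are the 6 with the largest mean ratio, the highest male level and the highest female level, the 4 whose ratios differ most between slides, the 3 on each side of each threshold and the 3 most like the largest ratio. Alternatives covered pixel summary, background, scaling, flags, both thresholds, each slide or sample left out and the value table. Gene lists and marker checks were not run because the gene field is blank.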

Additional observations from a re-analysis of the deposited data

Results flagged for a closer look

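The scanner files flag 647 spots on either slide, which entered no comparison. Of these, 3 met both conditions on male level and ratio, and are singled out because they carry the same pattern in data left out of the analysis. The spot at row 56, column 52, flagged on both slides, had a scaled net signal of 1136 in the female sample without wash and 753 in the one with wash, against 9.999 and 12.3 in the male samples, or 114-fold and 61.1-fold. Both female values are above those of any of the 122 unflagged spots. The spot at row 75, column 205 had 71.6 and 34.8 in females against 2.94 and 3.19 in males, and the spot at row 99, column 179 had 41.8 and 25.8 against 1.99 and 1.58. These last 2 were flagged on the slide without wash. In the order given, signal over local background in the female sample without wash was 236, 38.2 and 33.1 times. With wash it was 1469, 84.1 and 67.1 times. The female medians of the 122 spots were 86.9 and 101 times. What the flags mark is not given in the sources used here.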

How the results depend on the processing

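The count of 122 spots was 60 with a male floor of 2, 239 with a ratio of 4 and 45 with a ratio of 16, and 166 to 226 on 1 slide alone. The other settings gave 95 to 161: 138 with median pixels (108 shared), 100 after loess and Aquantile (84 shared) and 113 without the corner of raised background, a setting added after seeing the data. The median log2 ratio was 3.72 to 4.79 over all settings (4.23 as reported). The median male level of 2.35 was 3.01 with median pixels and 1.93 with no background subtracted. Calls for sex over all spots numbered 7322 (4016 higher in females, 3306 in males), 4683 with no replicate block, that is without pairing by slide, 3432 in the authors' value table (1306 and 2126) and 2783 to 4161 with each sample left out, again with no block, where a sex with 1 sample left is assumed to vary as the other does. The split was 2933 and 3988 with median scaling and 2880 and 3552 with quantile normalization. All 122 spots were called in each of these fits except the value table, where 49 were. Slide calls numbered 0, but 2701 with median scaling, with 0 of the 122 in both. With 1 slide per wash state, no alternative separates wash, dye and slide.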
